A study of Homo sapiens with 6 samples.

Results

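The circadian clock genes described here were the 10 genes ARNTL, PER1, PER2, PER3, CRY1, CRY2, NR1D1, NR1D2, DBP and BHLHE40, chosen by name, out of 60448 genes in both deposited tables. Each name matched 1 gene, and all 10 had an adjusted p in the authors' deposited table of either comparison, so none was lost to a filter on low values. The assay was 4sU-seq, in which cells take up the uridine analogue 4-thiouridine so that RNA made during labelling can be collected and sequenced. The cells were RPE1, an immortalised human line from retinal pigment epithelium, in 3 groups of 2 libraries. One group was wild type and had neither doxycycline nor hydrogen peroxide (H2O2), one was wild type with H2O2 and no doxycycline, and one was a NuMA (TDIF) knockdown, made with doxycycline, with H2O2. The knocked-down gene, NUMA1, encodes a nuclear protein that gathers microtubules at the spindle poles in mitosis. Doxycycline and the knockdown went together in every library, so their effects cannot be told apart, and an untreated knockdown was not analysed here. The labels give no dose, no times and no hour of collection, and do not say that libraries came from separate cultures, so the errors below may be technical.

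The clock is a loop of transcription factors that runs with a period of about a day. CLOCK and the protein of ARNTL, also called BMAL1, bind E-box sequences and switch on the PER, CRY, NR1D, DBP and BHLHE40 genes. PER and CRY proteins then block that pair, NR1D1 and NR1D2 (REV-ERB alpha and beta) repress ARNTL through ROR elements, DBP activates genes with D-boxes, and BHLHE40 (DEC1) competes at E-boxes. In the mouse, the retinal pigment epithelium holds such a clock. PER1 and PER2 are also known to be induced within an hour by signals that reset the clock, through CREB and the glucocorticoid receptor.

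The promoter windows of the members, from 250 bases before to 50 bases after a transcript start, were taken from RefSeq (GRCh38.p14, the same assembly as hg38). All 10 members matched, ARNTL under its later symbol BMAL1, with 14 windows in all since some genes have more than one such start. The stretches below are shown because they hold the clock motifs that link the members to each other. Each reads 5′ to 3′ on the strand of its gene and ends before the RefSeq start of its window, and the capitals mark the motif matches. Those starts are not the outermost ends of the genes in GENCODE 29, which are given with the values of each member, so all 6 stretches lie wholly or in part within the gene as GENCODE draws it. The stretches were kept short enough that at most 30 bases lie in a GENCODE exon.
PER1: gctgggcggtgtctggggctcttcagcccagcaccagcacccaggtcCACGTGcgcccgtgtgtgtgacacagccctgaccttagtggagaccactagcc
BHLHE40: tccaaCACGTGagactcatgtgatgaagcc
NR1D2: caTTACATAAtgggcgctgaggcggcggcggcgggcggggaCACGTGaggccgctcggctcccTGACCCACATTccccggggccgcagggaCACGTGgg
NR1D1: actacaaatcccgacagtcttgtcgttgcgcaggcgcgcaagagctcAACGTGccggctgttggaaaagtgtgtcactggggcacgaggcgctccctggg
CRY1: acacacttcagaAACGTGaggtgccggtgg
CRY2: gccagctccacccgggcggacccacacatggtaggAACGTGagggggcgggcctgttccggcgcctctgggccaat

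The PER1 stretch lies at chr17:8152525-8152624 (minus strand) and the BHLHE40 stretch at chr3:4979187-4979216 (plus strand), before RefSeq starts at 8152404 and 4979437. That of NR1D2 lies at chr3:23945925-23946023 (plus strand) and that of NR1D1 at chr17:40100705-40100804 (minus strand), before starts at 23946121 and 40100589. The CRY1 stretch lies at chr12:107093621-107093650 (minus strand) and the CRY2 stretch at chr11:45847252-45847327 (plus strand), before starts at 107093549 and 45847475. Motifs were searched on both strands. The E-box CACGTG was found in windows of 3 members, PER1, BHLHE40 and NR1D2, and in 7.26% of 35116 windows of all genes. The E′-box CACGTT, which reads AACGTG from the other strand, was found in 4 members, NR1D1, CRY1, CRY2 and PER2, and in 5.34% of all windows. The D-box, searched as TTATGTAA or TTACGTAA, was found in 3 members, NR1D2, PER2 and PER3, and in 1.01% of all windows. The ROR element was found in ARNTL and NR1D2 and in 0.316% of all windows, in ARNTL 27 bases into the transcribed part. The full cAMP response element TGACGTCA and the CArG box bound by SRF were found in none of the 10 (1.85% and 1.29% of all windows). The short form of the cAMP response element, TGACG, which the full one contains, was found in 4 members, CRY1, CRY2, NR1D2 and PER2, and in 24.6% of all windows. DBP held none of these motifs in its window. These member counts are by gene and the shares are by window, so they are not like for like. By window, 3 of the 14 member windows held an E-box, 4 an E′-box, 3 a D-box, 2 a ROR element and 6 the short TGACG form.

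The deposited tables gave 1 value per gene and group and no value per library, from which the mean count of the 2 libraries was worked out. Summed over genes, these came to 14576529 per library without treatment, 17989740 in wild type with H2O2 and 16565168 in the knockdown. Among genes of at least 50 mean counts, the median log2 fold change was 0.29 in the authors' deposited table for H2O2 and -0.29 in that for the knockdown, both a factor of 1.22. Changes are therefore given as log2 ratios of mean count plus 1, centred on this median, and each ± is a standard error derived from the deposited p-value. In pooled cells, fewer cells making an RNA and less of it made per cell cannot be told apart. "Called", "rose" and "fell" mean a Benjamini-Hochberg adjusted p under 0.05 in a normal test of that centred change, over all 18522 genes tested for H2O2 and 18266 for the knockdown. NUMA1 itself fell in the knockdown by 0.46 ± 0.12 (adjusted p = 0.00112), a call lost only under Bonferroni adjustment. Its mean counts went from 1571 to 933.5, or to 1142 once scaled to the median gene. These are counts of RNA made during labelling, and NUMA1 protein was not measured here. Of 8 markers of differentiated retinal pigment epithelium, MITF and OTX2 had 583.5 to 674 and 160.5 to 387 mean counts, those of MITF being lower limits because its length was not settled by the annotation. RPE65, RLBP1 and TYR had at most 6 in any group, so those defining markers were at or near 0, and after H2O2 BEST1 was called higher and OTX2 lower. Markers of other cells moved between the groups as well, and their part in the results below was not tested. Scaled to the median gene, the sum of 6 neural retina and neuronal markers was 116, 350 and 253 in untreated, H2O2-treated and knockdown cells. That of 8 fibroblast markers was 6261, 10842 and 10745, and that of 6 epithelial keratin and adhesion genes 23951, 43587 and 35672, lower limits for the same reason. Few genes carried these sums. TUBB3 went from 50.8 to 232 and 147 and PDGFRB from 499 to 3987 and 2942, most of the rise of their sums after H2O2. KRT8 was the largest part of the epithelial sum in each group. The scaled counts of COL3A1, DCN and LUM were lower after H2O2. After H2O2, 2 of 5, 2 of 7 and 2 of 5 tested genes of these lists were called higher and 0 lower. Of all tested genes, 16.6% were called higher and 15.8% lower. In the knockdown, 1 of 6, 2 of 6 and 2 of 5 were called lower and 1 fibroblast gene, COL1A1, higher, beside 14.5% and 15.4% of all tested genes. Of these lists, CRX was at 0 in untreated cells and EPCAM at 0 after H2O2.

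After H2O2, wild type cells made more BHLHE40 RNA and less CRY2, NR1D1, NR1D2 and DBP RNA. BHLHE40 rose 3.23-fold, and the 4 falls lay between 1.80-fold and 2.11-fold. In the knockdown with H2O2, PER1, DBP and NR1D1 RNA was 2.40-fold, 2.24-fold and 2.04-fold higher than in wild type with H2O2, BHLHE40 RNA was 1.40-fold higher, and CRY1 RNA was 1.95-fold lower. PER2, PER3 and ARNTL were called in neither comparison. After H2O2, 1 of 10 members was called higher and 4 lower, where 16.6% and 15.8% of all tested genes were called higher and lower. In the knockdown 4 were called higher and 1 lower, against 15.4% and 14.5% of all tested genes. The members' median change was 0.02 after H2O2 and 0.30 in the knockdown, beside 0.05 and 0.01 for all tested genes. Without centring, the authors' deposited table for H2O2 had 3 members higher and 3 lower, beside 26.7% and 9.60% of all genes. In their table for the knockdown, 3 were higher and 2 lower, beside 6.81% and 28.0% of all genes.

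**Figure D1:**
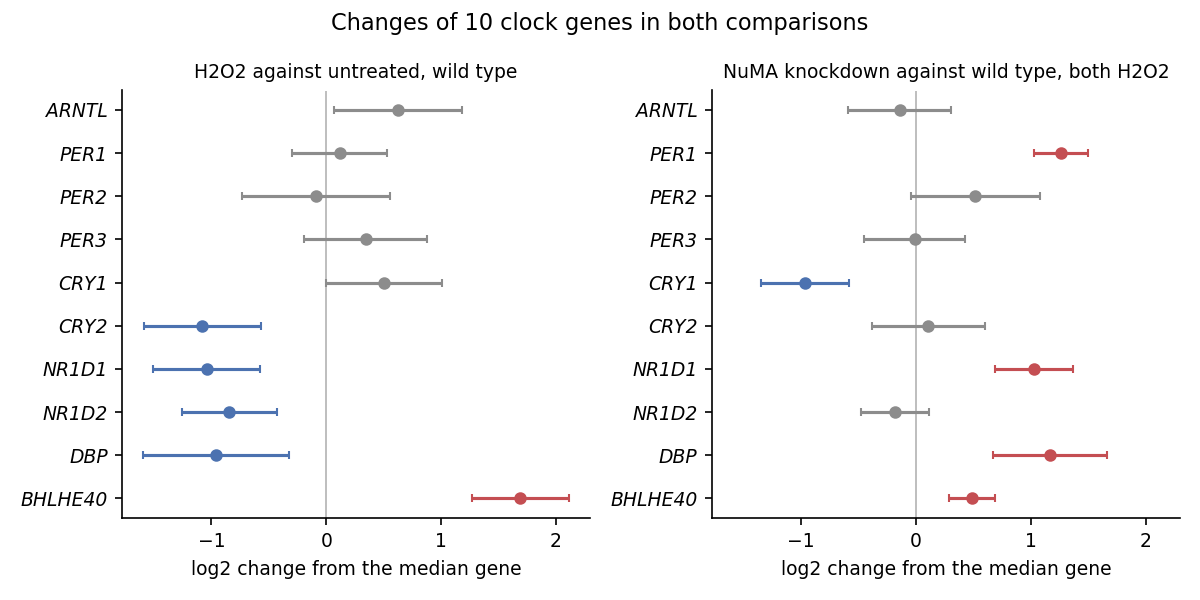
Log2 change from the median gene (horizontal axis) of the 10 clock genes in both comparisons, with 95% intervals from the implied standard errors; red points were called higher, blue points lower and grey points neither. After H2O2, BHLHE40 stands alone on the right at 1.69 and CRY2, NR1D1, DBP and NR1D2 lie between -1.08 and -0.84, while in the knockdown PER1, DBP, NR1D1 and BHLHE40 lie to the right and CRY1 to the left.

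Levels were compared between genes per length, as mean counts scaled to the median gene and divided by the kilobases of mean transcript length. That length is an unweighted mean over all annotated transcripts, of which PER1 has 19 (mean 1474 bases), ARNTL 21 (1295) and NR1D1 1 (2772). The order of the members and the ratios between them therefore depend on the annotation, and other lengths were not tried. These are levels of RNA made during labelling, not of all RNA present. In untreated wild type cells NR1D2 had the highest level of the members, at 461 scaled mean counts per kb. PER1 followed at 399, BHLHE40 at 249, CRY2 at 238 and NR1D1 at 170. CRY1 had 140, ARNTL 110, DBP 89.8, PER3 48.7 and PER2 44.0. The exact 95% Poisson intervals of 3 neighbouring pairs overlapped, BHLHE40 with CRY2, ARNTL with DBP and PER3 with PER2, and those intervals cover counting error only. After H2O2, BHLHE40 came first at 805, ahead of PER1 at 433 and NR1D2 at 257. In the knockdown BHLHE40 had 1126 and PER1 1038, and PER1 stood 4.60-fold above the next member, NR1D2, at 226. PER2 was the lowest member in all 3 groups, at 41.4 after H2O2 and 59.4 in the knockdown. The intervals of PER2 overlapped with those of PER3 in untreated and knockdown cells and with those of DBP after H2O2.

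**Figure D2:**
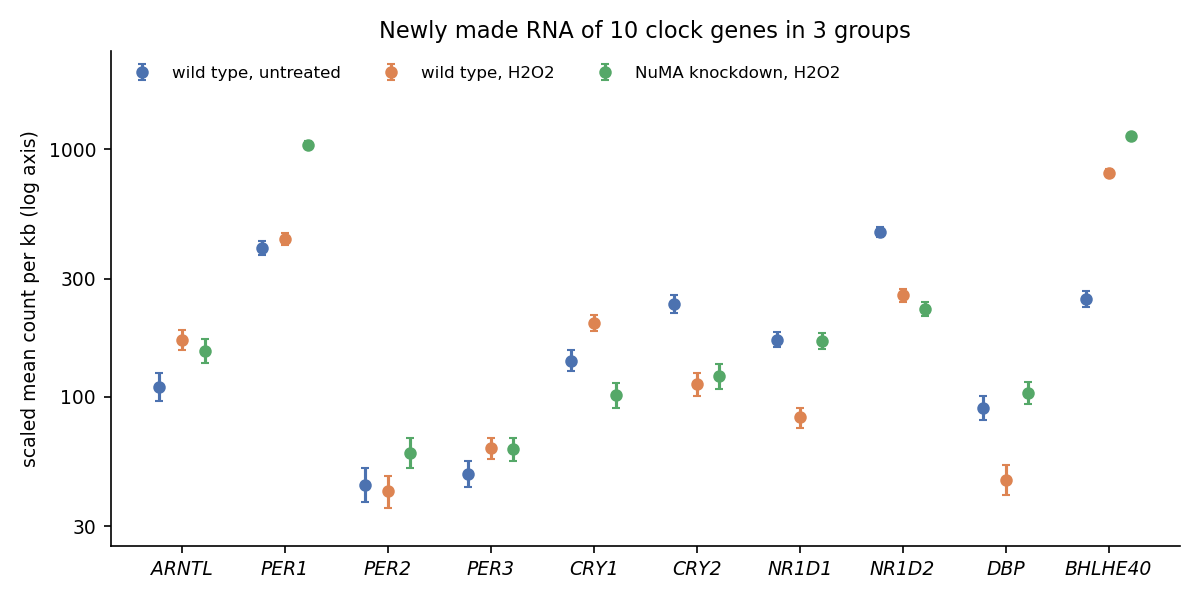
Scaled mean counts per kb of mean transcript length (log axis) of each clock gene in the 3 groups, with exact 95% Poisson intervals that cover counting error only. BHLHE40 rises from 249 in untreated to 1126 in knockdown cells, PER1 stands at 399 and 433 in wild type and at 1038 in knockdown cells, and NR1D1 and DBP dip in H2O2-treated wild type cells (82.4 and 46.1) and stand near their untreated levels in the knockdown (168 and 104).

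ARNTL, the activating arm of the loop, lies on chromosome 11 from 13276652 to 13387266 (hg38, plus strand) and is the longest member, at 111 kb. It had 116 mean counts in untreated cells, 220 after H2O2 and 162.5 in the knockdown, so that H2O2-treated wild type cells were the highest group. Its change after H2O2 was 0.63 ± 0.29 (adjusted p = 0.0783), short of a call. The authors' deposited table, uncentred, gave 0.92 with an adjusted p of 0.00540. In the knockdown its change was -0.14 ± 0.23 (adjusted p = 0.715). CLOCK, which encodes its partner, stood at 0.02 ± 0.23 and -0.10 ± 0.17 and was called in neither comparison, with signs that turned in 2 and 1 of 8 alternatives. Their paralogues ARNTL2 and NPAS2 were not called after H2O2. In the knockdown ARNTL2 was called lower (-0.48 ± 0.14, adjusted p = 0.00402) and NPAS2 higher (0.41 ± 0.16, adjusted p = 0.0386). The authors' deposited table gave adjusted p-values of 6.47e-07 and 0.645 there, and the other alternatives are not given for these genes.

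The PER genes encode the repressors that pair with the cryptochromes, and among them only PER1 was called, and only in the knockdown. PER1 (chromosome 17 from 8140472 to 8156506, minus strand) had 480.5 mean counts in untreated cells, 638.5 after H2O2 and 1251.5 in the knockdown. The knockdown mean stood far above those of both wild type groups, which lay close together once scaled. After H2O2 the change of PER1 was 0.12 ± 0.21 (adjusted p = 0.721). In the knockdown PER1 rose by 1.26 ± 0.12 (adjusted p = 6.50e-24), above 95.9% of all tested genes, and the authors' deposited table gave 0.97 with an adjusted p of 1.51e-14. Over all 8 alternatives its change lay between 0.97 and 1.26, and it was called in each.

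PER2 (chromosome 2 from 238244038 to 238290102, minus strand) was sparse, with 78.5, 90.5 and 106 mean counts in the order untreated, H2O2 and knockdown. Its changes were -0.09 ± 0.33 after H2O2 and 0.52 ± 0.29 in the knockdown (adjusted p = 0.876 and 0.182), the first being 0.20 in the authors' deposited table. PER3 (chromosome 1 from 7784320 to 7845177, plus strand), held to be the least needed of the family for the rhythm, had 131, 204 and 165 mean counts. Its changes were 0.34 ± 0.27 and -0.01 ± 0.22 (adjusted p = 0.363 and 0.977), and the second was 0.08 with genes of like span as the reference. The 3 genes can be set against each other free of any scaling common to all genes, though not of a reference by span. In the knockdown the change of PER1 exceeded that of PER3 by 1.27 ± 0.25 and that of PER2 by 0.74 ± 0.31. That of PER2 exceeded that of PER3 by 0.53, with a 95% interval from -0.19 to 1.25. With genes of like span as the reference, PER1 stood at 1.15 and PER2 at 0.63 there, so they lay closer together. After H2O2 the gap from PER1 to PER2 was 0.21, with a 95% interval from -0.56 to 0.97, which does not separate the 2 genes.

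The cryptochromes CRY1 and CRY2, the partners of PER in the repressor complex, did not follow the same course. CRY1 (chromosome 12 from 106991364 to 107093829, minus strand) had 206 mean counts in untreated cells, 358.5 after H2O2 and 149.5 in the knockdown, highest in H2O2-treated wild type cells and lowest in the knockdown. Its change after H2O2 was 0.51 ± 0.26 (adjusted p = 0.123), not called, while the authors' deposited table gave 0.80 with an adjusted p of 0.00780. In the knockdown CRY1 fell by 0.97 ± 0.19 (adjusted p = 6.53e-06), where 8.60% of tested genes had a lower change, and it was called in all 8 alternatives.

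CRY2 (chromosome 11 from 45847118 to 45883248, plus strand) had 280.5 mean counts in untreated cells against 162 after H2O2 and 142.5 in the knockdown, so both H2O2-treated groups were low. It fell by 1.08 ± 0.26 after H2O2 (adjusted p = 0.000245). Like the falls of NR1D1 and NR1D2 below, this one was called in 7 of 8 alternatives and not with Bonferroni adjustment over all genes. Between the H2O2-treated groups its change was 0.11 ± 0.25 (adjusted p = 0.816), and it was -0.18 in the authors' deposited table. The change of CRY1 minus that of CRY2 was 1.58 ± 0.37 after H2O2 and -1.07 ± 0.32 in the knockdown, and the windows of both hold an E′-box in the letters AACGTG. By mean transcript length (1804 bases for CRY1, 1443 for CRY2), CRY1 RNA was lower than CRY2 RNA in untreated cells, at 140 against 238 scaled mean counts per kb. After H2O2 it was higher, at 199 against 112, and these orders depend on the annotated lengths.

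NR1D1 and NR1D2 encode the nuclear receptors that repress ARNTL. NR1D1 (chromosome 17 from 40092787 to 40100725, minus strand) had 385 mean counts in untreated cells, 228.5 after H2O2 and 381 in the knockdown. The H2O2-treated wild type cells alone were low. NR1D1 fell by 1.04 ± 0.24 after H2O2 (adjusted p = 0.000109) and rose by 1.03 ± 0.17 in the knockdown (adjusted p = 6.43e-08). The knockdown rise was called in all 8 alternatives. Genes of like span, which are short, had median changes of -0.33 after H2O2 and 0.20 in the knockdown. Against these NR1D1 stood at -0.71 and 0.83 and was called in both comparisons (adjusted p = 0.0124 and 1.95e-05). Its exons share 263 bases with those of THRA, the thyroid hormone receptor gene on the opposite strand, and the strand setting of the counting is not given in the sources used here, so reads there cannot be told apart. THRA rose by 0.57 ± 0.23 after H2O2 (adjusted p = 0.0415), a call lost in 3 of 8 alternatives. In the knockdown it stood at -0.23 ± 0.12 (adjusted p = 0.151), and it was called lower there in 2 alternatives, without centring and scaled by total counts.

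NR1D2 (chromosome 3 from 23945260 to 23980618, plus strand), with its pair of E-boxes, had 893, 608 and 437 mean counts in the order untreated, H2O2 and knockdown. It fell by 0.84 ± 0.21 after H2O2 (adjusted p = 0.000454), as its paralogue did. In the knockdown its change was -0.18 ± 0.15 (adjusted p = 0.410), so it stayed low there, while the authors' deposited table, uncentred, gave -0.48 with an adjusted p of 0.00641. The change of NR1D1 exceeded that of NR1D2 by 1.21 ± 0.23 in the knockdown. After H2O2 the gap between them was -0.20, with a 95% interval from -0.82 to 0.43.

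DBP (chromosome 19 from 48630030 to 48637438, minus strand), a D-box activator whose RNA swings widely over the day in animal tissues, followed the course of NR1D1. It had 160 mean counts in untreated cells, 100.5 after H2O2 and 185 in the knockdown, again with the H2O2-treated wild type cells alone low. DBP fell by 0.96 ± 0.32 after H2O2 (adjusted p = 0.0128) and rose by 1.16 ± 0.25 in the knockdown (adjusted p = 3.75e-05, and 0.0826 with Bonferroni adjustment). The fall was not called in the authors' deposited table (-0.67, adjusted p = 0.0946). Genes of like span, which are short, had a median change of -0.30 after H2O2, and against these DBP stood at -0.66 and was not called (adjusted p = 0.110). In the knockdown the median of such genes was 0.19, and against it DBP stood at 0.97 and was called (adjusted p = 0.000824). Exons of DBP share 661 bases with those of SPHK2, a sphingosine kinase gene on the opposite strand, which stood at 0.12 ± 0.23 and 0.09 ± 0.16 and was called in neither comparison.

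BHLHE40 (chromosome 3 from 4979116 to 4985323, plus strand), a repressor that is also induced by many stimuli, had 355 mean counts in untreated cells, 1404.5 after H2O2 and 1606 in the knockdown. Both H2O2-treated groups were high. It rose by 1.69 ± 0.21 after H2O2 (adjusted p = 1.70e-13), above 92.6% of tested genes, and it was called in all 8 alternatives, at 1.63 to 2.02. In the knockdown it rose further by 0.48 ± 0.10 (adjusted p = 1.96e-05). That step was not called in the authors' deposited table (0.19, adjusted p = 0.138). BHLHE40 is the shortest member, at 6.21 kb, and genes of like span had a median change of -0.33 after H2O2. In the knockdown their median was 0.20, and against it BHLHE40 stood at 0.28 (adjusted p = 0.0229). BHLHE40-AS1, which shares 4 exon bases with it on the opposite strand, had at most 12 mean counts. By its 2 changes, BHLHE40, the member with the widest range over the groups, lay nearest to KRT34, SREBF1 and GFRA1, at distances of 0.02, 0.06 and 0.06 on the log2 scale over 3 groups. In all, 28 of 10819 genes lay within 0.25 of it.

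**Figure D3:**
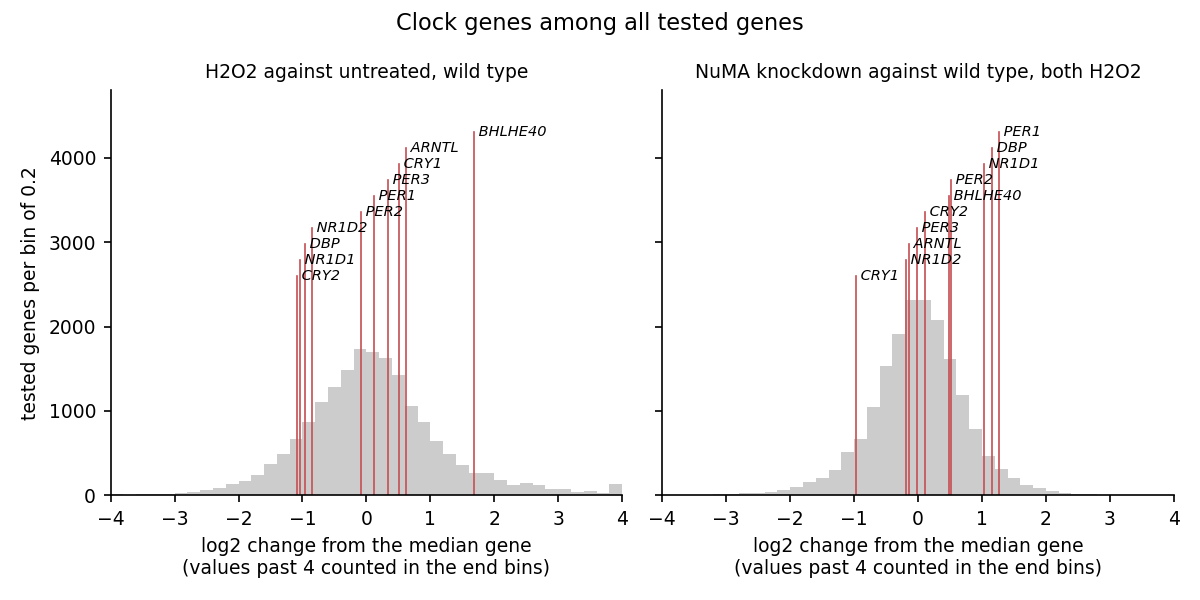
Number of tested genes (vertical axis) per bin of log2 change from the median gene (horizontal axis) in both comparisons, with red lines at the changes of the 10 clock genes; the heights of the lines only separate the names. After H2O2, BHLHE40 lies in the upper shoulder (above 92.6% of genes) and CRY2 in the lower one (above 11.1%), and in the knockdown PER1 (above 95.9%) and CRY1 (above 8.60%) lie farthest out.

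The knockdown with H2O2 can also be set against untreated wild type by adding the changes of both tables, which share the H2O2-treated wild type libraries, and no test is given for these sums. BHLHE40 stood 2.17 and PER1 1.38 above untreated cells, and PER2, ARNTL and PER3 stood 0.43, 0.48 and 0.33 above them. NR1D1 and DBP differed from untreated cells by -0.02 and 0.21. NR1D2, CRY2 and CRY1 stood at -1.03, -0.97 and -0.46. The 4 members that fell after H2O2 thus split evenly, with NR1D1 and DBP close to their untreated level in the knockdown and NR1D2 and CRY2 not. The median gene moved by a factor of 1.22 in opposite directions in the tables, so that centring on it cancels out of these sums. Scaling by total counts lowers each of them, to 0.24 for PER2, 0.15 for PER3, 0.30 for ARNTL, 0.02 for DBP, -0.20 for NR1D1 and -0.64 for CRY1, while BHLHE40, PER1, NR1D2 and CRY2 then stand at 1.99, 1.19, -1.21 and -1.16.

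Members that share a promoter motif did not all change alike. Of the 3 members with an E-box, BHLHE40 rose, NR1D2 fell and PER1 was not called after H2O2. Among the 4 members with an E′-box, NR1D1 and CRY2 fell and CRY1 and PER2 were not called. In the knockdown, 2 of the 3 members with an E-box rose, PER1 and BHLHE40, and of the 4 with an E′-box NR1D1 rose and CRY1 fell.

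Other genes of the clock were looked at in a list of 20, of which 17 were tested in either comparison. After H2O2, 1 was called higher and 4 lower, beside 16.6% and 15.8% of all tested genes, with a list median of -0.09. HLF, a relative of DBP, fell by 2.46 ± 0.34, from 176.5 to 38.5 mean counts, and CIART, a repressor of the CLOCK and BMAL1 pair, fell by 1.90 ± 0.29, from 323 to 105. NFIL3, which represses through D-boxes, fell by 0.81 ± 0.24. BHLHE41 (DEC2), the paralogue of BHLHE40, fell by 0.78 ± 0.23, where BHLHE40 rose, a call lost in 3 of 8 alternatives. The rise was that of FBXW11, a subunit of the ubiquitin ligase that marks PER proteins, by 0.65 ± 0.20, a call lost in 2 of 8. The authors' deposited table had FBXW11 and NONO higher and HLF and CIART lower, and called neither NFIL3 nor BHLHE41 (adjusted p = 0.0736 and 0.0770).

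In the knockdown, 7 of the 17 other clock genes were called higher and 4 lower, with a median of 0.30, beside 15.4% and 14.5% of all tested genes. But 1 was higher, NFIL3, and 5 lower in the authors' deposited values, beside 6.81% and 28.0% of all genes. NFIL3 rose by 0.80 ± 0.16, from 323.5 to 462 mean counts, and so lay near its untreated 463 in raw counts. USP2, which removes ubiquitin from clock proteins, rose by 0.71 ± 0.26, a call lost in 4 of 8 alternatives and not made in the authors' deposited table (adjusted p = 0.218). TIMELESS, a homologue of a fly clock gene that acts at replication forks in human cells, fell by 1.15 ± 0.16. HLF and CIART stood at 0.56 ± 0.44 and 0.52 ± 0.29, not called, with 46.5 and 123.5 mean counts.

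Genes linked to clock resetting, among them the glucocorticoid receptor targets TSC22D3 and FKBP5, were taken as a list of 15, all tested. After H2O2, 5 were called higher and 0 lower, with a median of 0.15, beside 16.6% and 15.8% of all tested genes. The authors' deposited table gave 6 and 0, beside 26.7% and 9.60% of all genes. RASD1, a Ras-like protein with a role in the response of the mouse clock to light, rose by 5.85 ± 0.43, from 7 to 564 mean counts. TSC22D3, a target of the glucocorticoid receptor, rose by 1.41 ± 0.22, and SIK1, a kinase that holds back CREB coactivators, by 1.25 ± 0.38. SRF and FKBP5 were the other 2, and the call of FKBP5 was lost in 4 of 8 alternatives. In the knockdown, 3 were called higher, CRTC1, CRTC2 and SIK1 (the last 2 calls lost in 3 of 8 alternatives each), and 4 lower, RASD1, FKBP5, ATF1 and EP300. Of all tested genes, 15.4% were called higher and 14.5% lower. The authors' deposited table gave 1 and 6, beside 6.81% and 28.0% of all genes. CRTC1, a coactivator of CREB, rose by 1.08 ± 0.13, from 558.5 to 968 mean counts. RASD1 fell by 1.26 ± 0.16 and FKBP5, another glucocorticoid target, by 1.14 ± 0.19.

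Of 9 genes described as clock outputs, 3 were called higher and 0 lower after H2O2, with a median of 0.36. The shares of all tested genes were 16.6% and 15.8%. The authors' deposited table gave 6 and 0, beside 26.7% and 9.60% of all genes. CDKN1A, which encodes the cell cycle inhibitor p21, rose by 0.80 ± 0.20. The transcription factor genes KLF11 and KLF10 rose by 0.79 ± 0.31 and 0.58 ± 0.21, calls that were lost in 3 and 2 of 8 alternatives. In the knockdown 3 were higher and 3 lower, with a median of 0.16, beside 15.4% and 14.5% of all tested genes. The authors' deposited table gave 3 and 4, beside 6.81% and 28.0% of all genes. CDKN1A rose by 1.15 ± 0.07, from 32107 to 58083.5 mean counts. LEO1, a subunit of the PAF1 elongation complex, fell by 1.14 ± 0.25, and WEE1, a kinase that delays mitosis and whose gene is an E-box target, by 0.70 ± 0.16.

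**Figure D4:**
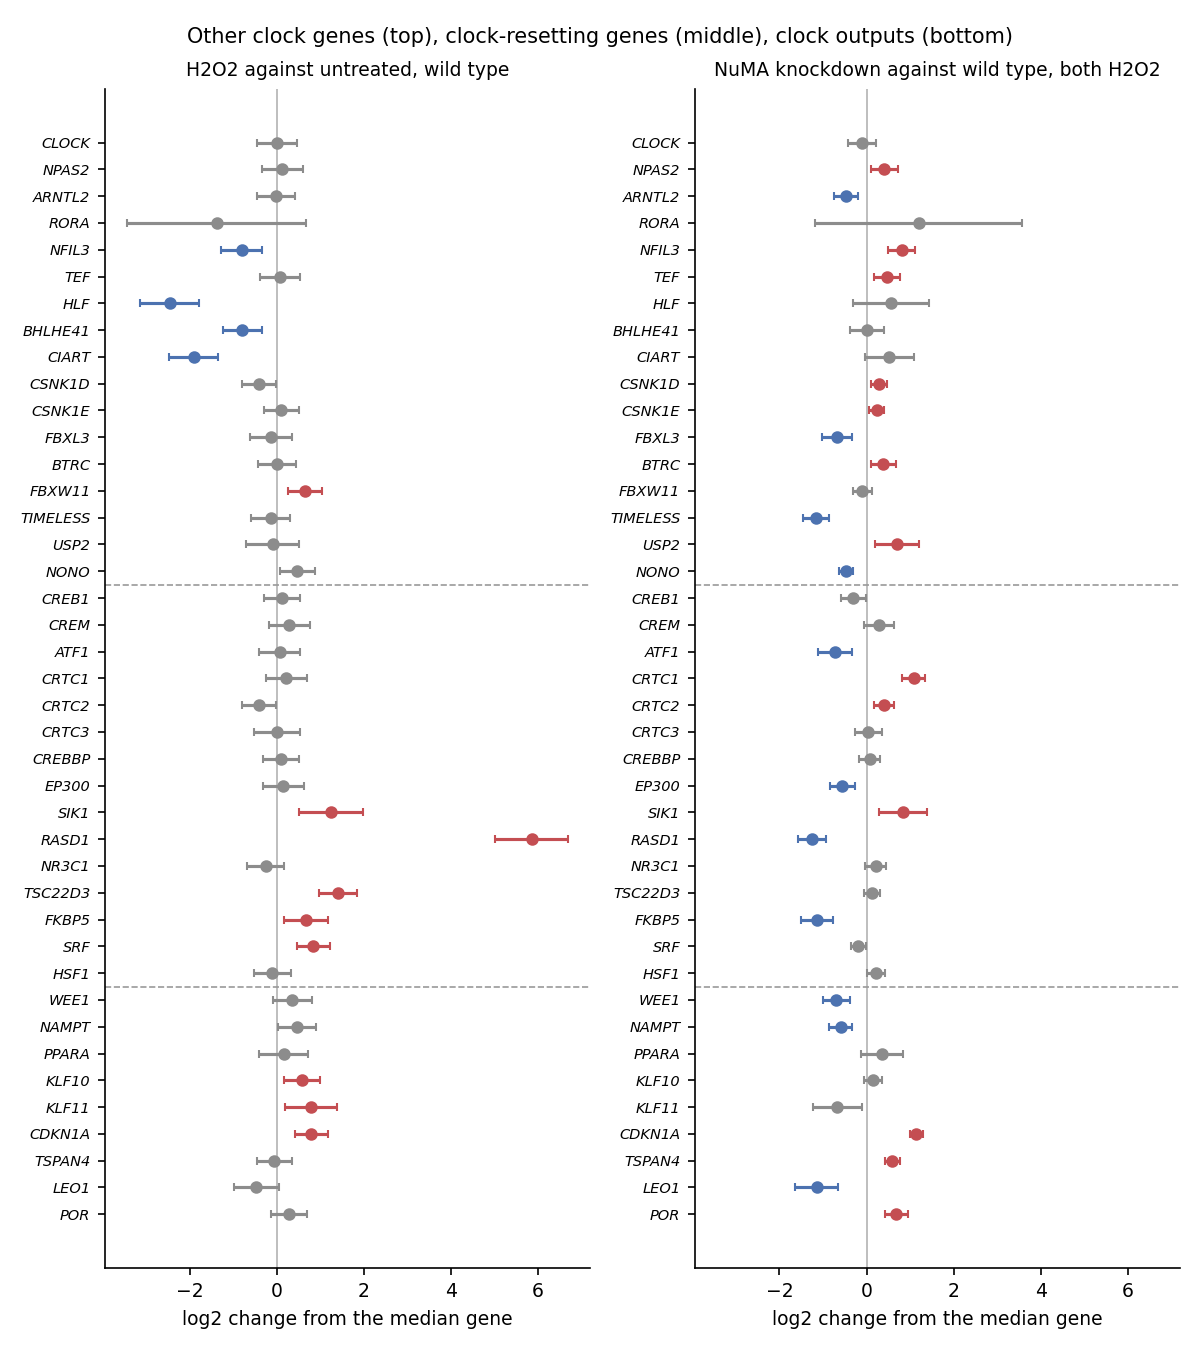
Log2 change from the median gene (horizontal axis) with 95% intervals from the implied standard errors, for the other clock genes tested in both comparisons (above the upper dashed line), the clock-resetting genes (between the lines) and the clock outputs (under the lower line); red points were called higher, blue lower and grey neither. After H2O2, RASD1 lies far to the right at 5.85 and HLF and CIART to the left at -2.46 and -1.90, and in the knockdown CRTC1 and CDKN1A lie to the right and RASD1, TIMELESS, LEO1 and FKBP5 to the left.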

How the data were processed

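RNA labelled with 4-thiouridine was sequenced from 6 libraries of RPE1 cells, grouped by the labels' titles. STAR 2.5, DESeq2, DESeq and hg38 are named in the submitters' processing notes without their roles. The counting tool, its strand setting and the annotation are not given in the sources used here. For each gene and comparison the authors deposited a pooled signal value per group, with no unit in the header. They also deposited the log2 ratio of these values, a p-value and an adjusted p, per the file headers, which name no program.

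The signal was decomposed into mean count of 2 libraries plus 1, over a gene length, times a constant. The GENCODE 29 mean transcript length, rounded down, made every mean a multiple of 0.5, within 1e-06, for 86.0% of 60448 genes and for all 10 members. Other genes took the shortest length that did so within a looser tolerance, so their counts, and the totals, may be too low. How deep each library was is not known.

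Deposited p-values referred to a fold change of 0 before any centring. For genes of 500 or more mean counts, their median was 0.962 (H2O2) and 0.938 (knockdown) near that point and 0.170 and 0.00931 near the median gene. Each fold change was centred on the median tested gene of at least 50 mean counts and divided by its implied standard error, the size of the log2 fold change over the normal quantile of p. A two-sided normal test and Benjamini-Hochberg adjustment across all tested genes followed. For 588 and 825 genes, whose p or fold change was too near its null, the error was the median of genes of like mean count. On simulated counts with 200 genes changed 2-fold, 83.0% were recovered among 18522 genes for H2O2 and 99.5% among 18266 for the knockdown. As many genes were raised as lowered, all others shared 1 shift, and p-values came from the normal model that the test assumes. The simulation therefore could not check the centring where many genes change, as in these data. The 8 alternatives tried are in the closing section.

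The members and lists were chosen with earlier results of these data known, and a few listed genes are not reported here. Named were all members, NUMA1, the 3 called genes of largest change per list and comparison, and the 3 genes nearest to the member of widest range. Gaps between members, CLOCK and other genes beyond that were chosen after their values were seen. Analyses used Python 3.11.15 with pandas 2.3.3, numpy 2.4.6 and scipy 1.17.1.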

Additional observations from a re-analysis of the deposited data

How the results depend on the processing

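The changes of the members, NUMA1, the genes named by rule, and CLOCK, BHLHE41, FBXW11, CRTC2, ATF1, EP300, SRF, THRA and SPHK2 where the text gives them, were recomputed under 8 alternatives (7 for HLF in the knockdown, which has under 50 mean counts): without centring, scaled by total counts, centred on genes with at least 500 mean counts or on genes of like span, with errors from genes of like mean count, with only genes of at least 50 mean counts, with all genes, and with Bonferroni adjustment. Of 80 values per comparison over the 10 members, 6 lost and 2 gained a call after H2O2, and 2 lost and 1 gained one in the knockdown. Without centring, 3 members in place of 1 were higher after H2O2 (CRY1 and ARNTL added) and 2 in place of 1 lower in the knockdown (NR1D2 added). With Bonferroni adjustment 0 members were lower after H2O2. Among these, the sign changed for values that were not called: without centring to 0.20 (PER2), 0.15 (TIMELESS) and 0.20 (USP2) after H2O2 and to -0.18 (CRY2), -0.17 (TSC22D3), -0.135 (KLF10) and -0.20 (SPHK2) in the knockdown, by total counts to -0.065 (CRY2), -0.047 (TSC22D3), -0.016 (KLF10) and -0.086 (SPHK2), on genes with at least 500 mean counts to -0.049 (CLOCK, H2O2), and by span to -0.070 (NUMA1) and -0.20 (CLOCK) after H2O2 and 0.075 (PER3), 0.063 (ARNTL), -0.040 (KLF10), 0.074 (CLOCK) and -0.037 (SPHK2) in the knockdown. Over all genes, the genes called went from 4947 higher and 1778 lower without centring to 3067 and 2921 with it after H2O2, and from 1244 and 5118 to 2822 and 2640 in the knockdown (1774 and 3964 by total counts); Bonferroni adjustment left 926 and 931, and 1118 and 1006. With only the bases before the start searched, 1 member in place of 2 held a ROR element and 2 in place of 3 a D-box. Leaving out replicates was not run, since the tables hold 1 value per group. No paired analysis was possible because the tables hold no value per library. The lowest member, PER2, had 78.5 mean counts, so its standard error of 0.33 after H2O2 limits what could be called. The cause of these shifts was not tested.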
